A study of Mus musculus with 8 samples.

Results

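Cycling Csf1r+ Lyz2+ cells of liver metastases were described in 4 mice. A cell belonged to them when it held at least 1 unique molecular identifier (UMI, a counted transcript molecule) of Mki67, Top2a, Csf1r and Lyz2, no UMI of Cd3e or Cd79a, and no assembled T cell receptor contig. The members were thus chosen by measured values of these genes. The rule was met by 343 of the 48214 cells that passed filters on gene number (200 or more) and mitochondrial UMIs (10% or less). Knockout mice 1 and 2 gave 40 cells each, and control mice 1 and 2 gave 78 and 185. The gate without Mki67 and Top2a held 17023 cells, of which 15551 had neither cycling gene and served as the non-cycling comparison. The other 588 and 541 gate cells had a UMI of Mki67 alone or Top2a alone and entered neither side.

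The knockout mice were Vav1CreTet2KO, in which the Vav1 promoter drives Cre recombinase in the blood lineages, and the controls were Tet2fl/fl, which carry the floxed gene without a Cre named in the label. The labels call the mice of a group biological replicates 1 and 2. Both groups received Venus-AKTPM/LOH colorectal cancer cells by injection into the spleen, and live CD45+ leukocytes were sorted from their liver metastases at day 30. Each mouse gave 1 droplet library, whose reads start at 5′ transcript ends, so there were 2 mice per genotype, and age and sex are not in the labels. With 2 mice against 2, an exact two-sided permutation test cannot give a p below 0.333.

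Mki67 encodes a protein that coats mitotic chromosomes and Top2a the topoisomerase that untangles replicated DNA, and both transcripts accumulate from S phase to mitosis. Csf1r, the receptor for the macrophage growth factor CSF1, and Lyz2, lysozyme of granules, mark monocytes and macrophages, but early dendritic cells and myeloid progenitors can carry both too. Tet2 oxidises methylated cytosine in DNA and restrains the self-renewal of blood stem and progenitor cells, and monocytes that enter a tumour mostly leave the cell cycle as they become macrophages.

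The values that chose the cells were low for 3 of the 4 genes. The median Mki67 count per cell was 4.5, 4.5, 4 and 4 UMIs (knockout mice first here and in other runs of 4 values, each genotype in replicate order), and that of Top2a was 8, 9, 7 and 7. Csf1r had medians of 2, 3, 8 and 2 UMIs, and 92 of the 343 cells passed with a single Csf1r UMI. Lyz2 differed most, with medians of 14.5 and 16.5 UMIs in the knockout mice and 122 and 147 in the controls. Just outside the rule stood 141 cycling cells with Lyz2 but no Csf1r, 12 with Csf1r but no Lyz2, and 78 cells with all 4 genes that a T or B cell criterion removed. A rule of at least 2 UMIs of each gene kept 182 cells.

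The cycling cells were deeply sampled: median UMIs per cell were 18192.5, 17059, 20753.5 and 15869 in the same order of mice, against 8747, 7882, 8761 and 7429 in non-cycling gate cells. Whole libraries held 57190926, 60456627, 89945864 and 91789597 UMIs. Scrublet called 14 of the 343 cells doublets, 11 of them in control mouse 2. No cell barcode was shared between cycling cells of different libraries, and 24 of them had a barcode that occurred in some other cell of another library.

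Markers did not bear out the label of monocytes and macrophages in the knockout mice. Cells with a UMI of Flt3, Xcr1, Zbtb46 or Cd209a, genes of dendritic cells and their precursors, are called dendritic-marked here. Among the cycling cells they made up 62.5% in knockout mouse 1 (25 of 40 cells, 95% Clopper-Pearson interval 45.8 to 77.3%) and 57.5% in knockout mouse 2 (23 of 40, 40.9 to 73.0%). In the controls they made up 15.4% (12 of 78, 8.21 to 25.3%) and 10.3% (19 of 185, 6.30 to 15.6%). Both knockout mice lay above both controls, also after cells were thinned to 5000 UMIs, at 43.6 and 58.3% against 11.8 and 7.73% (exact permutation p = 0.333 for the unthinned shares). These intervals cover counting error alone. Summed over 12 dendritic markers, cycling cells held 827 and 1094 CPM in knockout and 231 and 128 CPM in control mice, with 11, 11, 9 and 11 of the markers detected. The 12 include the genes that define the class, so this sum is not separate from the class shares. Cd209a alone gave 725 CPM in knockout mouse 2.

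Each of the 4 single markers was found more often in both knockout mice than in both controls. Flt3, a growth factor receptor of dendritic precursors, had a UMI in 55.0 and 42.5% of cycling cells of the knockout mice and in 12.8 and 7.57% of those of the controls. Zbtb46, a transcription factor of conventional dendritic cells, was detected in 37.5 and 22.5% against 5.13 and 2.16%. Cd209a, a lectin of dendritic cells, was detected in 25.0 and 40.0% against 7.69 and 3.24%. Xcr1, a chemokine receptor of cross-presenting dendritic cells, was detected in 32.5, 12.5 and 3.85% and in 0 of 185 cells of control mouse 2, which allows a share of up to 1.62%. Free transcripts give a background to such shares: among Cd79a+ cells, which should lack these markers, 7.13, 6.98, 4.54 and 3.73% were dendritic-marked, at median depths of 3152.5, 2969.5, 2506 and 2850 UMIs. Clec9a, a dendritic gene that the class did not use, had a UMI in 84.0, 39.1, 33.3 and 15.8% of the dendritic-marked cycling cells and in 13.3, 0, 10.6 and 1.20% of the others.

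Lyz2 helped to choose the cells, so its level is given as a description. In the dendritic-marked cycling cells its median count was 8, 6, 6.5 and 102 UMIs per cell, against 158, 157, 125.5 and 152.5 in the other cycling cells. Summed over cells, its level was 1503, 880 and 3810 CPM and, in control mouse 2, 7142 CPM in dendritic-marked cells, and 12936, 9820, 7551 and 10414 CPM in the others. It was lower in the dendritic-marked cells of each mouse by either measure.

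In the controls the cycling cells fell into other classes. Progenitor-marked cells, with at least 2 UMIs of the granule protease genes Mpo, Elane and Prtn3 and no dendritic mark, made up 12.5 and 12.5% of cycling cells in the knockout mice, 26.9% in control mouse 1 and 70.8% in control mouse 2 (131 of 185 cells, 63.7 to 77.2%). Prtn3, the most often detected of the 3, had a UMI in 15, 17.5, 46.2 and 81.1% of cycling cells and in 0.383, 0.629, 6.91 and 9.63% of the shallower Cd79a+ cells, so the background was also higher in the controls. Elane, which encodes neutrophil elastase and is transcribed at the promyelocyte stage, had a UMI in 12.5, 10, 10.3 and 40.5% of cycling cells. Control mouse 2 stood apart from the other 3 for Elane. Mean shares of progenitor-marked cycling cells were 12.5 and 48.9% (knockout first), and 8.01 and 34.9% after thinning to 5000 UMIs. Among non-cycling gate cells the means were 2.17 ± 0.049 and 23.7 ± 10.3% (± SD), so the mark was also common in non-cycling cells of the controls.

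Macrophage markers were led by control mouse 1. Of the remaining cells, those with C1qa, a complement gene of tissue macrophages, made up 10 and 5% of cycling cells in the knockout mice and 43.6 and 10.3% in the controls. Arg1 and C1qa were detected together in 2.56% and in 0 of 36 thinned cycling cells (up to 8.33%) of the knockout mice, and in 13.2 and 8.29% of those of the controls. Clec4f, a marker of Kupffer cells, the resident macrophages of the liver, was found in 0 of 40 cells in each knockout mouse, which allows a share of up to 7.50%, and in 5.13 and 0.541% of the control cells. Fcgr1, the high-affinity IgG receptor of monocytes and macrophages, had a UMI in 27.5 and 37.5% of cycling cells against 85.9 and 70.3%, with 1.62, 3.22, 17.5 and 12.9% among Cd79a+ cells. Ly6c2, a marker of inflammatory monocytes, was detected in 37.5, 55.0, 50.0 and 90.8%, with overlap between the genotypes. Csf1r and Lyz2 themselves were found together in 3.83, 5.24, 20.4 and 18.3% of Cd79a+ cells, a background that was higher in the controls and whose part in the gate was not tested.

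**Figure D1:**
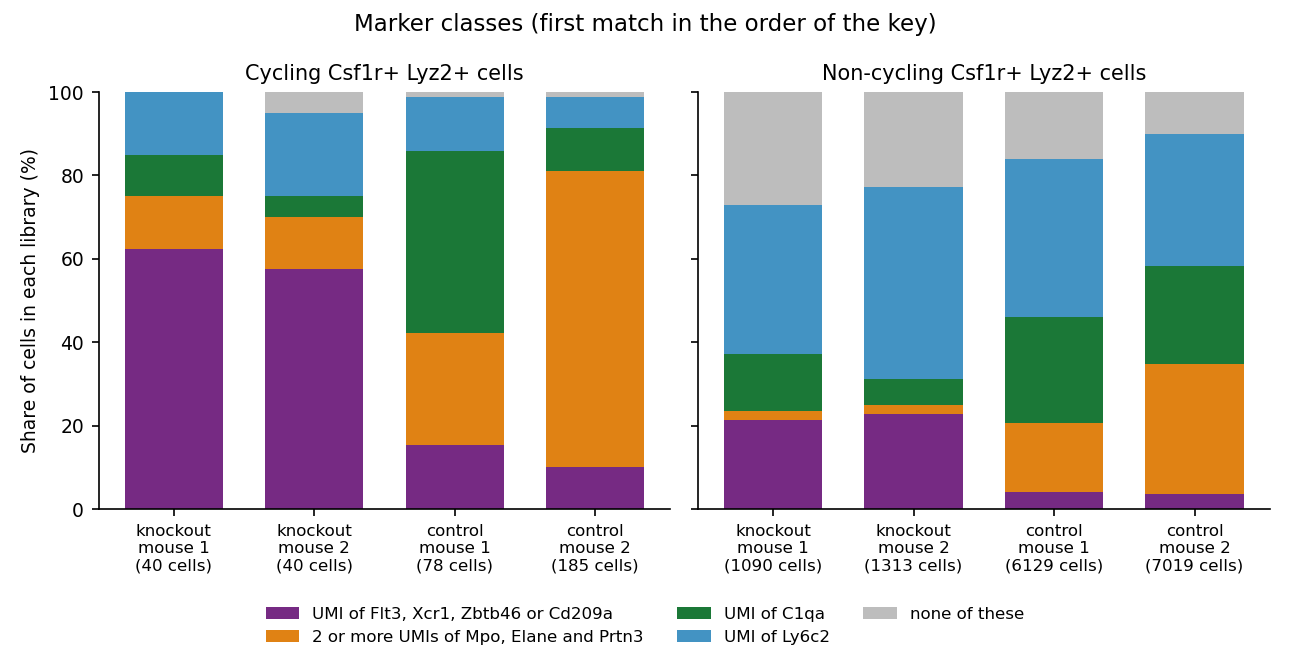
Share of cells (%) in each marker class among cycling (left) and non-cycling (right) Csf1r+ Lyz2+ cells of each mouse, each cell counted in the first class of the key that it meets. Dendritic-marked cells are 62.5 and 57.5% of the cycling cells in the knockout mice and 15.4 and 10.3% in the controls, and control mouse 2 is mostly progenitor-marked (70.8%).

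In non-cycling gate cells both knockout mice again lay above both controls, at lower levels, with 21.4 and 22.8% dendritic-marked cells in the knockout mice and 4.13 and 3.76% in the controls. Within each class, the share of cells in cycle was highest for dendritic-marked cells in control mice 1 and 2, at 4.26 and 6.09%, and for progenitor-marked cells in the knockout mice, at 13.9% (5 of 36 cells) and 14.3% (5 of 35). Dendritic-marked cells of the knockout mice cycled at 9.03% (5.93 to 13%) and 6.52% (4.17 to 9.62%). C1qa cells cycled at 2.40, 2.15, 1.91 and 1.07% and Ly6c2 cells at 1.42, 1.25, 0.404 and 0.599%, so that both knockout mice lay above both controls by a margin within the counting intervals.

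Over all classes, 3.30 and 2.79% of gate cells cycled in the knockout mice and 1.16 and 2.41% in the controls. The means were 3.04 ± 0.361% and 1.79 ± 0.884% (SD, n = 2 mice each), a ratio of 1.70, with an exact permutation p of 0.333. The groups did not overlap, but the order depended on depth and on class. After thinning to 5000 UMIs the shares were 1.00, 1.42, 0.618 and 1.17%, with overlap between the genotypes. Without dendritic-marked cells they were 1.60 and 1.57% against 1.03 and 2.26%, and control mouse 2 was the highest. Without progenitor-marked cells they were 2.91 and 2.52% against 0.955 and 0.849%, and without either class 1.11 and 1.15% against 0.848 and 0.721%.

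**Figure D2:**
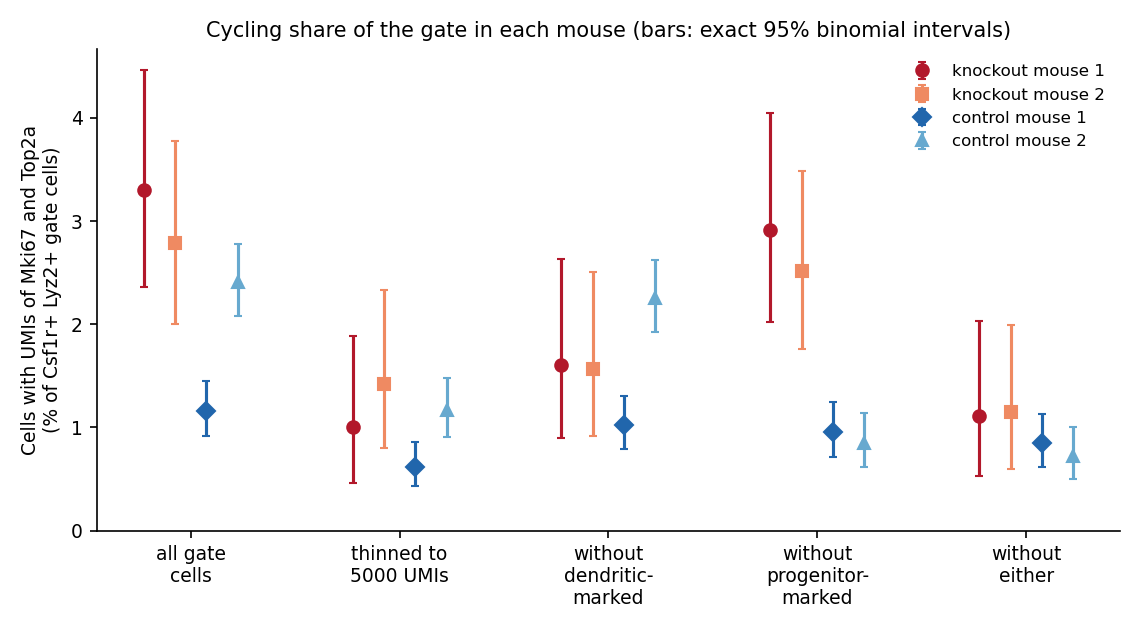
Percent of Csf1r+ Lyz2+ gate cells with UMIs of both Mki67 and Top2a in each mouse, for all gate cells, after thinning to 5000 UMIs, and with marker classes left out. Points are mice and bars exact 95% binomial intervals. Knockout mice lie at 3.30 and 2.79% and controls at 1.16 and 2.41% over all gate cells, while without dendritic-marked cells control mouse 2 (2.26%) is the highest.

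The makeup of the infiltrate differed too. Gate cells were 11.3 and 12.4% of all cells in the knockout libraries and 54.6 and 56.4% in the controls. Cycling gate cells were therefore 0.372 and 0.345% of all cells in the knockout mice and 0.635 and 1.36% in the controls. Fewer cells of a type and more cells of other types cannot be told apart in such shares.

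Transcripts of the cell cycle machinery were compared between cycling and non-cycling gate cells of the same mouse. UMI counts were summed per mouse and state, and levels are CPM, UMIs of a gene scaled to a common library total. Since Mki67 and Top2a split the cells, the genes transcribed with them are described without a test. The 44 S phase genes had a median log2 difference of 3.44 and the 52 G2/M genes one of 5.54, against -0.06 over the 10976 genes tested. Levels of Mcm5, a subunit of the replicative helicase, were 145 and 176 CPM in knockout and 109 and 145 CPM in control mice for cycling cells, against 9.87, 10.5, 8.62 and 6.06 CPM in non-cycling cells. Rrm2, the regulated subunit of ribonucleotide reductase, stood at 236, 219.6, 124 and 207 CPM against at most 1.99 CPM. Ccnb1, the mitotic cyclin B1, stood at 44.6, 72.2, 63.5 and 107 CPM against at most 0.630 CPM. In each of these genes all 4 mice were high in cycling cells and low in non-cycling cells, with no overlap.

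After thinning to 5000 UMIs, 76.9% (30 of 39), 80.6% (29 of 36), 69.7% (53 of 76) and 83.4% (151 of 181) of the cycling cells held more UMIs of the 52 G2/M genes than of the 44 S phase genes. The shares of the genotypes overlapped. These shares give no phase by themselves, since the G2/M list had the higher summed level in non-cycling cells too, at 957, 900.3, 729 and 694 CPM against 517, 495, 451 and 397 CPM for the S phase list. Top2a and Mki67, which chose the cells, also peak in G2 and mitosis. Other regulators stood high too: log2 differences were 7.10 ± 0.42 for Foxm1 and 6.27 ± 0.36 for Mybl2, the factors that drive G2/M genes, 6.35 ± 0.46 for the repressor E2f7, and 5.82 ± 0.15 and 4.13 ± 0.14 for the nucleotide enzymes Tk1 and Dut (± standard error of the fit, 4 mice). E2f1 differed by 0.99 ± 0.22. Cdkn2c, an inhibitor of CDK4 and CDK6 that proliferating cells transcribe, differed by 3.17 ± 0.19.

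Promoter sequences are shown for 2 G2/M genes and 2 S phase genes, because the 2 groups moved together and differ in their known elements. RefSeq promoters (GRCm38.p6, 250 bases before to 50 after the start) were matched by symbol for 46 of the 52 G2/M genes and 32 of the 44 S phase genes. The cell cycle homology element TTTGAA, the site of the DREAM and MuvB complexes, was found on either strand in 31 of the 46 G2/M promoters and 5 of the 32 S phase promoters, and in 12.5% of the 8590 promoters of tested genes and 18.1% of all 27025 promoters. An E2F site (TTTGGCGC, TTTCCCGC, TTTCGCGC or TTTGCCGC) was found in 13 of the 32 S phase promoters and 2 of the 46 G2/M promoters, in 4.51% of promoters of tested genes and 2.32% of all. CCAAT, bound by NF-Y, was found in 35 of 46 and 23 of 32, against 39.5% and 37.9%. The other genes higher in cycling cells held TTTGAA in 18.8% and an E2F site in 10.6% of their 1296 matched promoters. A match says only that the letters are present. The 150 bases just before the start follow, 5′ to 3′ along each gene, with TTTGAA, E2F sites and CCAAT or their reverse complements in capitals.
Cdc20 (mitotic activator of the anaphase-promoting complex, chr4:118437344-118437493, minus strand): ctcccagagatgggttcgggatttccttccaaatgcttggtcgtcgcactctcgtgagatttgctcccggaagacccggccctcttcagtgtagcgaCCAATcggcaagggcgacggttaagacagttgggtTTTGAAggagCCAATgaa
Ube2c (its ubiquitin-conjugating enzyme, chr2:164769779-164769928, plus strand): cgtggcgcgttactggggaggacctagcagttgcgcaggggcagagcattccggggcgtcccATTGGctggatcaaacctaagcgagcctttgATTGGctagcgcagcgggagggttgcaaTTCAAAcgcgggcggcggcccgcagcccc
Mcm5 (helicase subunit, chr8:75109359-75109508, plus strand): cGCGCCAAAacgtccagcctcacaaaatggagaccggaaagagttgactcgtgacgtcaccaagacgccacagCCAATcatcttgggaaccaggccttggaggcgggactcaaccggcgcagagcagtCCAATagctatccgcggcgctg
Mcm6 (helicase subunit, chr1:128359706-128359855, minus strand): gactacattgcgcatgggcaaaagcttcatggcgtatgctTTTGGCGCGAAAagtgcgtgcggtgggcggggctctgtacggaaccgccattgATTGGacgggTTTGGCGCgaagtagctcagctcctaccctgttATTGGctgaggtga

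In Cdc20 and Ube2c the TTTGAA match lies 13 to 18 and 24 to 29 bases before the start. In Ube2c both CCAAT matches lie farther from the start than it, and in Cdc20 it lies between 2 CCAAT matches. Mcm6 holds 2 overlapping E2F matches in 1 run of capitals and another 40 to 47 bases before the start, and Mcm5 holds 1 E2F match. Between cycling and non-cycling cells, Cdc20 differed by 6.39 ± 0.20 and Ube2c by 6.30 ± 0.17 on the log2 scale, and Mcm5 by 4.06 ± 0.17 and Mcm6 by 3.54 ± 0.16.

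Genes outside the S phase and G2/M lists were tested between cycling and non-cycling cells with the mouse as a block (edgeR quasi-likelihood test, Benjamini-Hochberg adjusted p under 0.05). Of 10880 such genes, 14.7% were called higher and 16.4% lower in cycling cells, and the counts of each list below are read against these shares. The cycling cells were deeper per cell, so most lists are also given against non-cycling cells matched for depth, where 12.4% were called higher and 11.8% lower. Matched counts are not given for the patrolling monocyte, MHC class II, CDK inhibitor, nucleotide synthesis and oxidative phosphorylation lists.

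Interferon-stimulated genes fell together. Of 25 tested type I interferon genes, 19 were lower and none higher (median log2 difference -1.0), and depth-matched cells gave 13 of 21. Irf7, the factor that amplifies the interferon response, was at 99 and 156 CPM in knockout and 83.8 and 25 CPM in control mice for cycling cells, against 341, 489, 152 and 56.6 CPM in non-cycling cells. It was lower in cycling cells of each of the 4 mice, although the level of either state differed widely between mice (log2 difference -1.36 ± 0.16, edgeR adjusted p = 6.64e-05). Rsad2, the antiviral enzyme viperin, was at 6.19, 4.51, 11 and 4.54 CPM against 52.1, 72.5, 37.7 and 16.2 CPM, so that the states did not overlap (-2.36 ± 0.28, adjusted p = 1.41e-04 by edgeR). Its cycling levels rest on 5, 3, 19 and 14 UMIs. The nucleic acid sensor Zbp1 (-1.39 ± 0.15) was lower as well, as was Slfn5 (-2.48 ± 0.30), an interferon-induced gene outside the list. The same list gave 18 of 25 lower without dendritic-marked cells (12.4% of the genes there), 16 of 23 within them (10.4%), and 18 of 24 in Ly6c2 cells without dendritic marks (13.4%).

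Interferon gamma and inflammatory genes followed. Of 21 interferon gamma genes 11 were lower and none higher (median -0.89, 13 of 20 at matched depth), among them the GTPase Ifi47 (-1.41 ± 0.17, edgeR adjusted p = 7.75e-05) and the transcription factor Irf1 (-0.89 ± 0.11, adjusted p = 7.55e-05). Irf1 stood at 91.6, 101, 85.5 and 96.9 CPM in cycling cells against 173, 201, 161 and 166 CPM, with no overlap between the states. Of 19 inflammatory cytokine genes 11 were lower and none higher (median -0.83, 8 of 16 at matched depth). Il1rn, the interleukin-1 receptor antagonist, was at 40.8, 78.2, 65.9 and 29.2 CPM against 189.9, 145, 209 and 123 CPM (-1.71 ± 0.20, edgeR adjusted p = 2.36e-04). Its UMIs in cycling cells came from 4, 2, 35 and 39 cells. Il1b was lower by the edgeR test (adjusted p = 0.0201) at 499, 923, 1092 and 484 CPM against 1272, 1302, 2002 and 1802 CPM, but its adjusted p reached 0.12 when a mouse was left out.

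Genes of macrophage maturation were lower in the summed cycling cells, with exceptions. The makeup of the 2 states differed. Dendritic-marked cells were 60.0% of cycling and 22.1% of non-cycling cells in the knockout mice (means). Progenitor-marked cells were 48.9 and 23.7% in the controls. The part of this makeup in the differences below, also in the monocyte and tumour macrophage lists, was not tested. Of 20 growth receptors and regulators 12 were lower and 2 higher (median -0.60, 9 of 17 lower at matched depth), the higher ones being Flt3 (1.59 ± 0.17) and Kit. Flt3 is among the genes that define the dendritic marks. Klf4, a factor of monocyte differentiation, was at 106 and 82.7 CPM in knockout and 113 and 99.5 CPM in control mice for cycling cells, against 274, 235, 209.6 and 202 CPM in non-cycling cells. It was lower in the cycling cells of each of the 4 mice (-1.17 ± 0.13, adjusted p = 2.67e-05 by edgeR). So were Cebpa (-1.01 ± 0.15), the cytokine receptor chains Csf2ra (-0.59 ± 0.11) and Csf2rb (-0.59 ± 0.11), and Il4ra (-0.90 ± 0.12).

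Of 16 monocyte genes 9 were lower and none higher, but only 3 of 15 at matched depth. Plac8, an abundant monocyte transcript, fell (-1.23 ± 0.08) but had an adjusted p of 0.0525 at matched depth. Of 11 patrolling monocyte genes 5 were lower, led by Ace, the angiotensin-converting enzyme, at 8.66, 13.5, 2.89 and 3.89 CPM against 123, 80.8, 31.7 and 26 CPM (-3.11 ± 0.22, edgeR adjusted p = 5.57e-07). The cycling levels of Ace rest on 7, 9, 5 and 12 UMIs. Of 24 tumour macrophage genes 9 were lower and none higher (median -0.80, 7 of 22 at matched depth): the haem-degrading enzyme Hmox1 (-1.85 ± 0.26), the angiogenic factor Vegfa (-1.54 ± 0.16), the lysosomal glycoprotein Cd68 (-0.71 ± 0.11) and Adgre1 (-1.18 ± 0.29), which encodes F4/80, were among those called. Apoe (-2.14 ± 0.65, adjusted p = 0.102) and Trem2 (-1.24 ± 0.43, adjusted p = 0.104), lipid-handling genes, were not called by edgeR. Of 11 MHC class II genes 2 were higher, H2-Oa (1.21 ± 0.23) and H2-Ob (1.59 ± 0.19), and the antigen-processing protease Ctss was lower (-1.33 ± 0.15), and neither H2-Oa nor H2-Ob was called without dendritic-marked cells (adjusted p = 0.333 and 0.531 by edgeR).

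**Figure D3:**
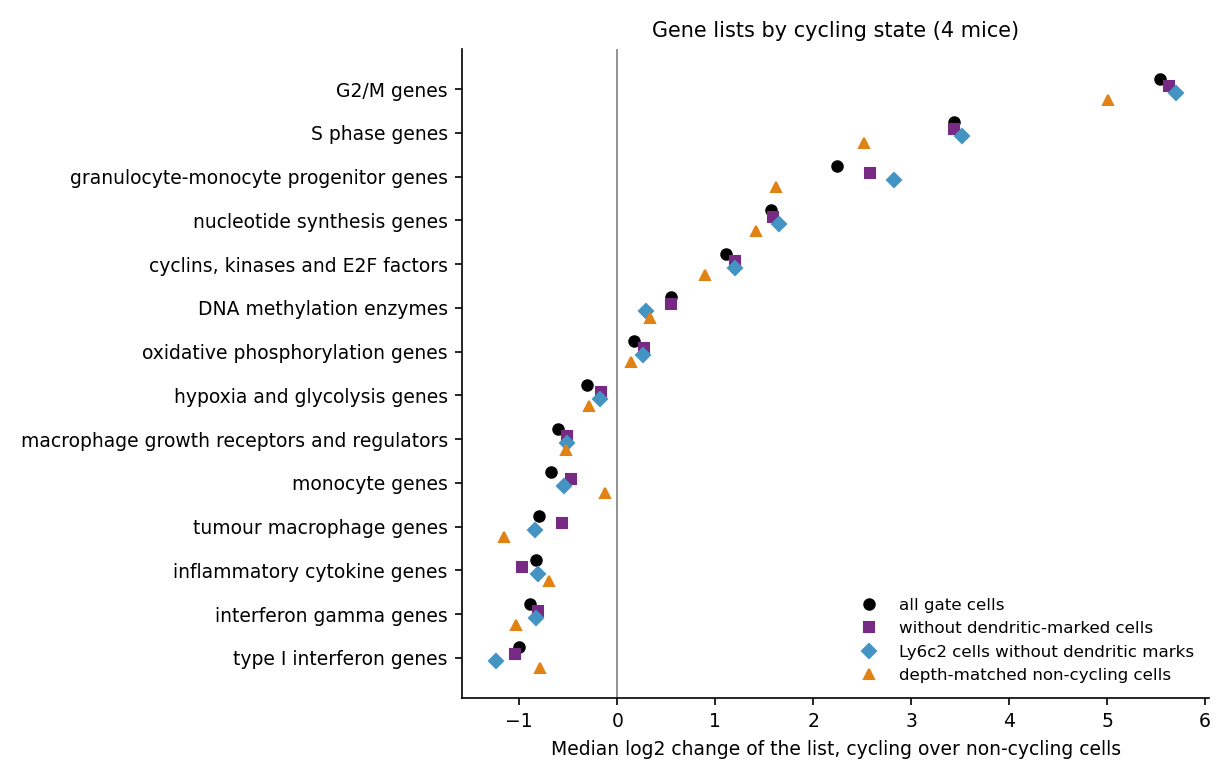
Median log2 difference (cycling over non-cycling cells, horizontal axis) of 14 gene lists, for all gate cells, without dendritic-marked cells, in Ly6c2 cells without dendritic marks, and against depth-matched non-cycling cells. The type I interferon list lies at -1.0 and the S phase and G2/M lists, whose genes are transcribed with those of the rule, at 3.44 and 5.54.

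Brakes on the cycle moved in both directions. Of 13 CDK inhibitors and antiproliferative genes, 3 were higher and 5 lower. Btg1 and Btg2, antiproliferative factors of resting leukocytes, were lower (-1.12 ± 0.10 and -0.91 ± 0.10), with Btg1 at 436, 338, 402 and 308 CPM against 906, 609, 901 and 801 CPM. Cdkn1a, the inhibitor p21, was lower (-0.73 ± 0.10, edgeR adjusted p = 1.89e-04) but not against depth-matched cells (adjusted p = 0.0769). Cyclin D1, Ccnd1, was higher (0.82 ± 0.17, edgeR adjusted p = 0.00316), but its sign turned at matched depth (-0.47, adjusted p = 0.0786).

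Metabolic and stress genes split. Of 20 nucleotide synthesis genes 19 were higher, which is given as a description because they are transcribed with the S phase genes. Of 20 dissociation stress genes 1 was higher and 9 were lower (6 lower at matched depth). Of 22 oxidative phosphorylation genes 5 were higher and 2 lower (median 0.17). Of 20 hypoxia and glycolysis genes 7 were lower and none higher (4 of 20 at matched depth), with the glucose transporter Slc2a1 at -0.86 ± 0.13 and the lactate exporter Slc16a3 at -1.30 ± 0.14 on the log2 scale.

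Of 9 tested enzymes of DNA methylation and its removal, 4 were called higher in cycling cells (Uhrf1, Dnmt1, Idh2 and Tdg) and 3 lower (Tet2, Tet3 and Idh1). At matched depth 3 of 8 were higher and 1 lower. Uhrf1 is an S phase gene and Dnmt1 acts on newly copied DNA. Their part in these counts is thus a description and is not read against the shares of all genes. Dnmt1, the maintenance methyltransferase that copies methylation onto new DNA, was at 145 and 139.9 CPM in knockout and 75.1 and 112 CPM in control mice for cycling cells, against 14.4, 16.5, 17.6 and 18.9 CPM in non-cycling cells. Uhrf1, which recruits it to replicating DNA, was at 92.8, 61.7, 35.2 and 66.1 CPM against 1.16, 1.19, 1.41 and 0.88 CPM. Both were higher in each mouse. The log2 difference of Dnmt1 was 2.73 ± 0.20 and that of Uhrf1 was 5.64 ± 0.29, both described without a test since Mki67 and Top2a chose the cells. Idh2, a source of the cofactor of TET enzymes, was also higher (0.93 ± 0.12). The oxidising enzymes Tet3 and Tet2 were lower (-0.55 ± 0.15 and -0.50 ± 0.16, adjusted p = 0.0135 and 0.0355 by edgeR), but neither was called without dendritic-marked cells (adjusted p = 0.0798 and 0.0715). This fit pools the Tet2 knockout mice with the controls, so its Tet2 value is not that of the intact gene alone. Knockout mouse 2 held 12 Tet2 UMIs in 9 cycling cells.

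Granule genes of granulocyte-monocyte progenitors rose in cycling cells: of 11 tested, 7 were higher and 2 lower (median 2.24). Elane was at 18.6 and 227 CPM in knockout and 171 and 317 CPM in control mice, against 0.42, 0.497, 1.18 and 4.21 CPM in non-cycling cells (6.87 ± 0.42, edgeR adjusted p = 1.79e-04). Few cells carried it: 1 cell held 80.8% of the Elane UMIs of knockout mouse 2 and 87.2% of those of control mouse 1, while 75 cells shared them in control mouse 2. Mpo was higher as well (6.05 ± 0.51), with 2, 51, 47 and 260 UMIs from 1, 3, 5 and 41 cells. Prtn3 was not called (2.20 ± 0.73, edgeR adjusted p = 0.121). Without progenitor-marked cells 1 gene of 7 tested was higher and 2 were lower (11.6% and 13.3% of all genes there), and against depth-matched cells 3 of 5 were higher.

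**Figure D4:**
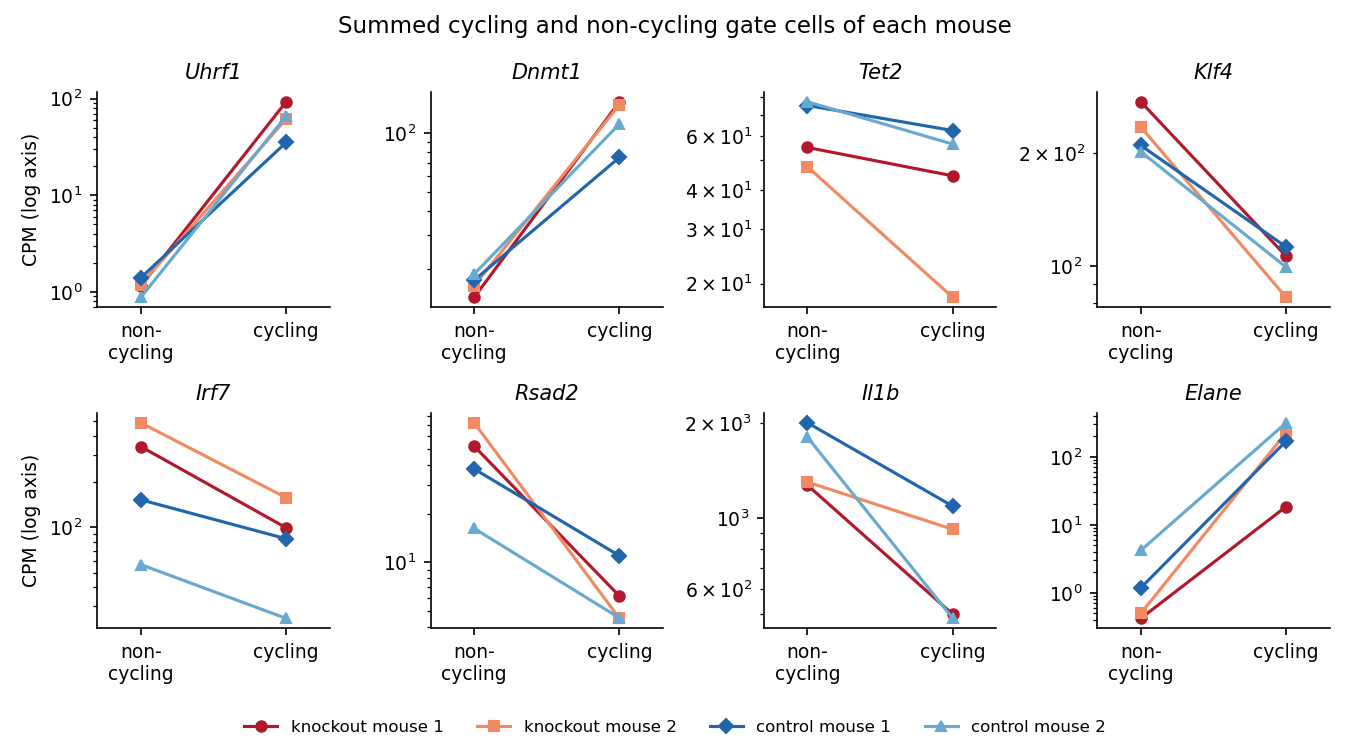
Levels (CPM, log axis) of 8 genes in summed non-cycling and cycling gate cells, each line a mouse. Uhrf1 and Dnmt1 rise and Klf4, Irf7 and Rsad2 fall in all 4 mice, while Elane rises from near 0 with a spread from 18.6 to 317 CPM in cycling cells.

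Genotypes were then compared within cycling cells. Of 8326 genes tested (edgeR quasi-likelihood test, 2 mice against 2, adjusted p under 0.05), 84 were higher in the knockout mice (1.01%) and 82 lower (0.985%). Tet2 itself was at 47.4 and 19 CPM in knockout and 65.8 and 57.5 CPM in control mice, lower in both knockout mice but not called (-0.86 ± 0.39, edgeR adjusted p = 0.296). Reads from the 5′ end need not cover the deleted part, which the labels do not name, so this level does not check the genotype. Leaving out either knockout mouse ended all calls by edgeR (1094 and 1156 genes at an unadjusted p under 0.05 without knockout mouse 1 or 2), whereas 835 and 693 genes were called without control mouse 1 or 2. Without the dendritic-marked cells, with 15 and 17 cells left in the knockout mice, edgeR called 0 of 7459 genes (0.0%, 846 at an unadjusted p under 0.05) and DESeq2 called 21. Within dendritic-marked cells 1.03% of 4938 genes were called. That class itself differed between the genotypes. Among its cycling cells a UMI of Fcgr1 was found in 27.4% in knockout and 58.1% in control mice (means of mice). For C1qa the means were 2.0 and 22.6%, while Flt3 was alike at 81.0 and 78.5%. Fits within the class thus do not hold the cell type constant.

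Dendritic genes were prominent among the higher ones, and 3 of 9 tested dendritic markers were called (median 3.40). Flt3 and Zbtb46 are also 2 of the 4 genes that define the dendritic marks. Flt3 was at 110.5 and 84.1 CPM in knockout and 12.2 and 11.2 CPM in control mice (3.06 ± 0.28, edgeR adjusted p = 0.0135). Zbtb46 was at 47.4 and 25.4 against 6.09 and 1.65 CPM, and Kit, the stem cell factor receptor, at 22.4 and 15.9 against 3.05 and 0.991 CPM. Kctd14, a gene that took no part in the marks, was at 42.1 and 38.1 against 1.83 and 0.991 CPM (4.86 ± 0.45, edgeR adjusted p = 0.0135) and was also called within dendritic-marked cells (3.06, adjusted p = 0.0333). In each of these genes both knockout mice stood far above both controls. Nccrp1 (3.56 ± 0.37) and Tnni2 (2.95 ± 0.40) were higher too, and Ccr7 (3.46 ± 0.31) as well, but its UMIs came from 2, 4, 6 and 5 cells.

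MHC class II genes divided. Of 11 tested, 2 were called higher and the median was 1.19 against 0.00 over all tested genes. H2-Oa and H2-Ob form the chaperone that restrains peptide loading in B and dendritic cells. H2-Oa was at 114 and 143 CPM in knockout and 21.9 and 8.26 CPM in control mice (3.16 ± 0.45, edgeR adjusted p = 0.0351), and H2-Ob at 85.5 and 85.6 against 11 and 3.3 CPM (3.72 ± 0.48, adjusted p = 0.0264), with no overlap between the genotypes in either gene. The antigen-presenting H2-Ab1 (1.19 ± 0.68, adjusted p = 0.448) and the invariant chain Cd74 (1.16 ± 0.63, adjusted p = 0.429) were not called. Without dendritic-marked cells the median of the list was -0.38, and H2-Ab1 and Cd74 had log2 differences of -0.22 and -0.48.

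Of 20 dissociation stress genes, named for their response to enzymatic tissue digestion, 7 were called higher in the knockout mice and none lower (median 0.64). They were the chaperone genes Hspa1a, Hspa1b, Hspa8, Hsp90aa1 and Dnajb1, and Jun and Nr4a1. The immediate early genes Fos, Fosb, Junb, Egr1, Atf3 and Dusp1 were not called. The chaperone Hspa1a was at 1851 and 1974 CPM in knockout and 345 and 282 CPM in control mice, with no overlap (2.61 ± 0.17, edgeR adjusted p = 0.00705). It was called within dendritic-marked cells (2.08, adjusted p = 0.00951) and had a log2 difference of 1.89 without them (adjusted p = 0.0616). Hspa1b (2.75 ± 0.25), the co-chaperone Dnajb1 (2.33 ± 0.23) and Hsp90aa1 (1.27 ± 0.17) were also higher. The nuclear receptor Nr4a1 was at 787 and 1369 against 373 and 332 CPM (1.61 ± 0.27, edgeR adjusted p = 0.0468). In non-cycling cells of the same mice Hspa1a and Nr4a1 were higher as well (1.96 ± 0.15 and 1.11 ± 0.15, edgeR adjusted p = 6.05e-04 and 0.00282), where 18.6% of 13970 genes were called.

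Cell cycle genes were not called between the genotypes: none of 43 S phase genes (median 0.42) and none of 52 G2/M genes (median 0.33) passed. Over all genes 1.99% were called, so 0 calls in lists of this size say little. The summed S phase list was at 3772 and 3392 CPM in knockout and 2513 and 2929 CPM in control mice, without overlap. The G2/M list was at 8262, 9054, 6136 and 8318 CPM, with overlap. All these cells were chosen by Mki67 and Top2a. Myc, which drives growth and entry into the cycle, was the sole called gene of 23 cyclins, kinases and E2F factors, a list that includes it, at 61.8 and 61.9 CPM in knockout and 13.4 and 14.5 CPM in control mice (2.13 ± 0.26, edgeR adjusted p = 0.0245). Its log2 difference was 2.14 within dendritic-marked cells (adjusted p = 0.067) and 0.51 without them (adjusted p = 0.763). In non-cycling cells Myc was at 22.5 and 28.8 against 18.1 and 12.8 CPM (0.73 ± 0.20). Ccnd1 was at 179 and 133 against 65.2 and 11.6 CPM and was not called (adjusted p = 0.349).

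Several macrophage genes were lower in the knockout mice. Ms4a4a, a surface protein of macrophages, was at 10.5 and 19 CPM in knockout and 132 and 125 CPM in control mice (-3.14 ± 0.30, edgeR adjusted p = 0.0152). C3ar1, the receptor for the complement fragment C3a, was at 7.89 and 3.17 against 77.4 and 38 CPM, and the lysosomal protease Ctsd at 197 and 135 against 488 and 436 CPM. In all 3 genes both controls lay above both knockout mice. Of 21 tumour macrophage genes 1 was called lower and the median was -1.37, against -0.46 without dendritic-marked cells. Trem2 (-2.26 ± 0.54, adjusted p = 0.121) and Apoe (-1.85 ± 0.42, adjusted p = 0.126) were not called by edgeR.

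Other called genes were lower in the knockout mice without forming a called list. Gbp7 (-2.48 ± 0.35) and Gbp2 (-1.81 ± 0.29), GTPases induced by interferon gamma, were 2 of 17 tested in their list, which held none called higher. Cd38, an enzyme that consumes NAD (-3.07 ± 0.40), Cish, a brake on cytokine signalling (-2.75 ± 0.38), the mitochondrial Chchd10 (-2.96 ± 0.36), Slc16a3 (-1.51 ± 0.23) and the nucleotide kinase Nme1 (-1.20 ± 0.22) were lower in both knockout mice than in both controls. None of 20 type I interferon genes (median 0.63), 10 progenitor genes (median -0.94), 22 oxidative phosphorylation genes (median -0.42) or 15 inflammatory cytokine genes (median -0.13) was called, where 1.99% of all genes were. Klrd1, a lectin receptor of NK cells and some dendritic cells, was higher (2.22 ± 0.30). The neutrophil granule gene Ngp was called lower as well, but its UMIs came from 0, 1, 1 and 11 cells of the 4 mice, and a single cell of control mouse 1 held all 754 UMIs of that mouse.

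**Figure D5:**
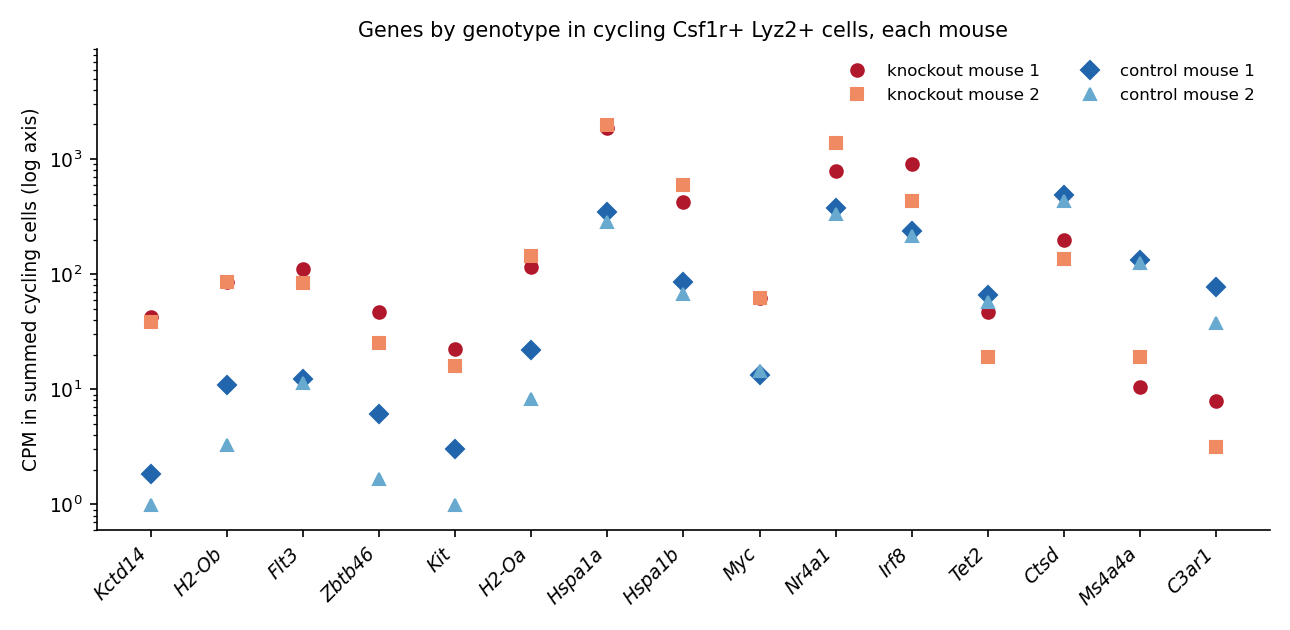
Levels (CPM, log axis) of 15 genes in the summed cycling cells of each mouse. Flt3, Hspa1a and Myc lie higher in both knockout mice, Ms4a4a, C3ar1 and Ctsd lower, and Tet2 and Irf8, which also separate, were not called.

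The genes that differed in cycling cells mostly differed in non-cycling cells of the same mice: of the 84 higher genes 83 had the same sign there and 67 were called (8.87% of all genes were called higher there), and of the 82 lower genes 80 and 69 (9.73% lower). Both comparisons use the same 4 mice. Without dendritic-marked cells 55 of the 84 could be tested and 53 kept their sign, with a median of 1.02 where all 84 had 2.02 with these cells, and the 82 lower genes all kept their sign, with a median of -1.07 where they had -1.82.

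Markers of other cells moved with the genotypes. The summed level of neutrophil markers in cycling cells was 468 and 1503 CPM in knockout and 4187 and 12107 CPM in control mice, and all 11 markers had a UMI in both controls, against 8 and 6 in the knockout mice. In non-cycling cells the same sum was 5713, 1963, 909.9 and 2567 CPM, so that the genotypes overlapped there. Summed T cell markers lay between 20.4 and 35.0 CPM and B cell markers at 181, 153, 52.1 and 103 CPM. Hepatocyte markers did not pass 4.84 CPM in any mouse. In cycling cells 6 B cell genes stood at 7.63, 7.30, 6.32 and 23.1% of their whole-library level, a measure of free transcripts. A further fit left out genes whose level such free transcripts could make up by 20% or more, and called 170 genes. It could test 81 of the 84 genes called higher in the knockout mice and 51 of the 82 lower, so more of the lower genes were left out. It called all the tested ones again, but their counts were the same as before. These repeated calls thus say nothing on free transcripts in the kept genes. The part of the other cells and of free transcripts in the genotype differences was not tested.

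Finally, the genotype difference was compared between the states. Of 11809 genes tested (edgeR, interaction of genotype and state with the mouse as a block), 30 were called (0.254%), 6 with a more positive knockout difference in cycling than in non-cycling cells and 24 with a more negative one. Ms4a4a was at 9.73, 17.8, 125 and 123 CPM in cycling cells and at 300.4, 312, 404 and 459.7 CPM in non-cycling cells, a larger difference between the genotypes in the cycling state (-2.71 ± 0.30, adjusted p = 5.99e-04 by edgeR). At matched depth it was not called (-2.41, adjusted p = 0.0728). Ctsd differed by -1.11 ± 0.19 and was not called without dendritic-marked cells (-0.40, adjusted p = 0.829 by edgeR) or at matched depth (-0.73, adjusted p = 0.418). Of the 30 genes, 8 were still called without dendritic-marked cells (0.0968% of all genes there), Ms4a4a among them, and 6 were still called against depth-matched non-cycling cells (0.124%).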

How the data were processed

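UMI counts per gene and cell were deposited by the authors as Cell Ranger matrices (Cell Ranger 8.0.1 and GRCm39, with Seurat 5.0.1 and R 4.4.1, per the submitters' processing notes; the annotation release is not given in the sources used here). The count files hold 33696 features. Cells with fewer than 200 genes or more than 10% mitochondrial UMIs were dropped. Counts were summed per mouse and state, genes with few counts were removed by filterByExpr, and sums were tested with edgeR 4.0.16 (TMM, robust quasi-likelihood test, Benjamini-Hochberg adjustment at 0.05, checked on simulated counts), with DESeq2 1.42.0 as an alternative. The 6 rule genes were not tested. Intervals are 95% Clopper-Pearson intervals, and shares were tested by exact permutation over mice. A count of 0 was taken to allow up to 3 counts. Levels are CPM with the TMM factors of each fit, whereas summed marker lists are plain CPM.

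Non-cycling cells had neither Mki67 nor Top2a. Depth matching took 1 non-cycling cell of the same mouse and nearest UMI total for each cycling cell, which leaves fewer counts and genes to test, and thinning drew 5000 UMIs per cell. Genes were named by a rule: the 8 largest called changes in each direction with a mean of at least 20 CPM and unmixed mice, up to 4 called members per list, and a fixed list, whose members that missed the threshold are named only where a result turns on them. Members, lists and tests were chosen with earlier results of these data known, and the marker classes and the alternatives built on them were chosen after seeing the data. Some genes are not reported here.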

Additional observations from a re-analysis of the deposited data

Results flagged for a closer look

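In 30 genes the knockout difference itself differed between cycling and non-cycling Csf1r+ Lyz2+ cells (interaction of genotype and state, edgeR adjusted p under 0.05, 0.254% of 11809 genes). Each value is the log2 difference in cycling cells minus that in non-cycling cells, and no explanation was weighed.

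Macrophage and lysosomal genes were more negative in cycling cells: Ms4a4a by -2.71, Gpnmb by -2.89, Pparg by -2.52, Selenop by -1.25, Ctsb by -1.26, Ctsd by -1.11, Gla by -1.68, the monocyte ribonuclease Ear2 by -1.82 and the ferritin light chain Ftl1 by -0.75. Of these, Ms4a4a was still called without dendritic-marked cells, but not against depth-matched non-cycling cells (-2.41, adjusted p = 0.0728). A negative value need not mean a lower level in cycling knockout cells. Gpnmb was at 131, 69.7, 25.2 and 16.5 CPM in non-cycling cells and 8.52, 7.41, 20.8 and 6.17 CPM in cycling cells. Pparg and Selenop likewise stood higher in both knockout mice in non-cycling cells and overlapped between genotypes in cycling cells. Ms4a4a and Ctsd were lower in both knockout mice in either state. Signalling and cytoskeletal genes of the same direction were Fyb at -1.28, Ccdc88c at -2.55, Tppp3 at -2.55 and the RNA editing enzyme Apobec1 at -1.26. G0s2, an inhibitor of fat breakdown, stood at -3.21, and the interferon-induced Ifitm1 at -3.78.

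Neutrophil genes rested on few cells: Camp UMIs came from 0, 0, 1 and 10 cycling cells (knockout mice first), Ngp from 0, 1, 1 and 11, and Retnlg from 1, 0, 1 and 8. Ngp had a value of -10.83, Retnlg -3.74, Asprv1 -5.93, Camp -16.36 and Wfdc21 -11.12. Camp, Wfdc21, Cox6a2 (-15.08), Il36g (-11.19) and the chemokine Ccl17 (-10.58) had no UMI in the cycling cells of either knockout mouse, so these fitted values depend on the prior count and are no bounds.

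More positive in cycling cells were the alternative activation gene Chil3 at 0.82, Tmsb10 at 0.84, Cd24a at 1.33, Ctc1 at 1.78, Jaml at 1.99 and the cytokine Il1a at 2.67. Chil3 was still called both without dendritic-marked cells and at matched depth. Il1a was still called without dendritic-marked cells, but all its UMIs in each knockout mouse came from 1 cell, against 24 and 26 cells in the controls.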

How the results depend on the processing

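Counts of called genes moved by more than 1.5 times under several settings, and the cause was not tested. By genotype in cycling cells 166 genes were called, against 453 with the replicate block, 911 without a filter on low counts, 81 with 2 UMIs of each rule gene, 0 without dendritic-marked cells (21 by DESeq2), 51 within them, 20 in Ly6c2 cells without dendritic marks, 421 without progenitor-marked and 104 without granule-marked cells, and 0 to 835 when a mouse was left out. Deviations of same-numbered mice from their genotype mean correlated at 0.08 in cycling cells and -0.16 in non-cycling cells. With 2 mice per genotype these values cannot settle whether the numbers pair the mice. A crossed block, which pairs mice of unlike numbers, was fitted in non-cycling cells alone. In non-cycling cells the block gave 2152 calls and the crossed block 3252, against 2598, with 1439 in dendritic-marked cells and 391 to 3308 with a mouse left out. By cycling state the 3473 calls became 2019 at matched depth, 1847 in dendritic-marked cells, 2221 by DESeq2 without them and 2456 to 3077 with a mouse left out. The 30 interaction calls became 11 at matched depth, 11 without and 13 within dendritic-marked cells, 52 without doublets, 12 without granule-marked cells, 129 without progenitor-marked cells, 241 without the low-count filter and 10 to 138 with a mouse left out.

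The difference in cycling share (1.25 percentage points, knockout minus control) was 0.317 and 0.0656 after thinning to 5000 and 2000 UMIs, -0.0551 without dendritic-marked cells (0.137 after thinning), 0.344 without either class and 0.630 to 1.88 with a mouse left out. For thinned cells with Arg1 and C1qa the difference was -9.44 points, against -17.6 unthinned, -6.18 at 2000 UMIs and -11.9 to -7.01 with a mouse left out. It was -35.6 to -11.3 for C1qa without Arg1, -28.8 to 12.6 for Ly6c2 without C1qa and 34.8 to 47.1 for cells with none of these. Kupffer-like cells gave -1.59, against -2.83 unthinned, -0.270 at 2000 UMIs and -2.63 to -0.552.

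Of 2399 settings for named genes 1935 kept direction and call, 407 lost the call, 41 gained it and 16 reversed. Between genotypes, Cd74 reversed to -0.48 without dendritic-marked cells (-0.48 by DESeq2) and -1.76 in Ly6c2 cells, and H2-Ab1 to -0.22, -0.22 and -1.76. By state, Ccnd1 reversed to -0.21 in dendritic-marked cells and -0.47 at matched depth, and Prtn3 to -1.56 without progenitor-marked cells. Among interaction genes, Ngp reversed to 0.78, Chil3 to -1.98 and Il1a to -5.30 in dendritic-marked cells, Il1a to -9.77 with 2 UMIs of each gene, Retnlg to 0.84 without granule-marked cells, and Jaml to -0.75 without dendritic-marked cells and -0.78 in Ly6c2 cells. With 40 cells per knockout mouse, low genes could not be tested.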
